A study of Mus musculus with 12 samples.

Results

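The genes described here are 10 transporters, channels and membrane proteins of the choroid plexus epithelium, namely Aqp1, Kcnj13, Kcne2, Clic6, Slc4a5, Slc16a8, Slc13a4, Tmem72, Wdr72 and Folr1, out of 23781 gene symbols with an entry in the deposited counts. They were chosen by their lower read levels in GFP-miR-34sp than in GFP Ctrl mice together with their known place in this epithelium, and were taken by name. Since read levels entered the choice, GFP-miR-34sp is compared with its GFP Ctrl mice for the 10 genes as a description, with no p-value. The genes are tested in the miR-9 experiment, whose contrast of sponge with GFP Ctrl did not enter the choice. Earlier results of these data were known when the genes were listed, so the order and spread of the miR-9 mice are descriptions. For genes outside the 10, adjusted p-values of both experiments are given. Of the 10 genes, 9 had at least 1 read in some mouse, 8 passed the limit on low values in each experiment (a mean of more than 10 scaled reads over its 6 mice), and Folr1 was listed at 0 in all 12 mice.

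RNA was sequenced from the whole bilateral hippocampi of 12 male C57BL/6 mice in 2 experiments of 6. At 10 weeks of age each mouse received hippocampal injections of a pseudotyped AAV2/5 vector with a human synapsin promoter, and 10 weeks after that the hippocampi were dissected. In one experiment, that on miR-9, there were 3 mice given GFP-miR-9sp, a GFP transcript carrying a sponge of imperfect sites that sequesters miR-9, and 3 given GFP alone (GFP Ctrl). The miR-34 experiment had 3 mice given GFP-miR-34sp and its own 3 GFP Ctrl mice. All 12 mice thus carried GFP from the same promoter, which is active in neurons. Expression of the vector in the choroid plexus epithelium was not tested here. The libraries are named by the mouse numbers of the labels, and the number 8 occurs once in each experiment, as separate samples. The labels call the sample hippocampal neurons, whereas whole tissue was used.

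The choroid plexus hangs in the ventricles of the brain, close to the hippocampus, and secretes cerebrospinal fluid. Its epithelium moves sodium, chloride, bicarbonate and water from blood to ventricle, with ion pumps, cotransporters and channels sorted to the apical or the basolateral membrane. It also carries sulfate, lactate, folate and other solutes, and it is the main source of transthyretin (Ttr) in the brain.

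The total count per mouse was 17279620 to 24428477 reads for the miR-9 mice and their controls and 11029604 to 16934133 for those on miR-34. A count of 3 reads, taken as the floor, corresponded to 0.123 to 0.272 RPM over the 12 mice, RPM being reads divided by the total count of the mouse and multiplied by 1000000, and this floor, like the exact Poisson intervals given below, covers counting error only. The summed level of 14 hippocampal neuron markers, 13 of which passed the limit on low values, was 3817 to 4663 RPM, and the summed level of the 10 genes was 15.3 to 150 RPM. The labelled tissue was therefore present in each mouse, and the genes described here made up a small and variable part of its reads. In bulk tissue, fewer cells of a type and less RNA per cell cannot be told apart.

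The 9 genes with reads have 1 RefSeq entry each, and Folr1 has 4. On mm9, with the annotation of GENCODE M1, 4 of the 10 genes lie on chromosome 6, which are Slc13a4 (35217957 to 35258131), Aqp1 (55286426 to 55298549), Slc4a5 (83169822 to 83254939) and Tmem72 (116642648 to 116666931). On chromosome 16, Kcne2 (92292634 to 92298374) and Clic6 (92485981 to 92541488) are separated by 187606 bases. Slc16a8 lies on chromosome 15 (79081444 to 79085191), Wdr72 on chromosome 9 (73958138 to 74131115), Folr1 on chromosome 7 (109006845 to 109019302) and Kcnj13 on chromosome 1 (89282938 to 89291304). Exons of Kcnj13 overlap exons of Gigyf2 on the opposite strand, and whether the counting used strand is not given in the sources used here, so the level of Kcnj13 is uncertain. Gigyf2 itself was listed with 1 read in 1 of the 12 mice. Among genes with a symbol, 17.4% of those with 1 entry and 29.01% of those with 4 or more entries had 0 reads in all mice, so the 0 of Folr1, with its 4 entries, is only a listed value and does not show that the folate receptor is absent.

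Mature miRNAs at which the sponges were aimed are shown first, since they define the treatments. Mature sequences are those of RefSeq, with the seed (bases 2 to 8) in capitals. miR-34a and miR-34b share a seed. The family also includes miR-34c.
miR-34a-5p: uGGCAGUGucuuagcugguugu
miR-34b-5p: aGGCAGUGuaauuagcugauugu
miR-9-5p: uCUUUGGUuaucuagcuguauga
The longest 3′ UTR annotated for each of the 10 genes was searched for the 7 bases complementary to these seeds. The heptamer CACTGCC of miR-34 was in 1 of the 10, that of Tmem72, at base 570, and in 14.0% of the 19915 UTRs searched. The heptamer ACCAAAG of miR-9 was in 2 of the 10, at base 96 in Aqp1 and at base 524 in Slc13a4, and in 11.4% of all UTRs. The 3 matches are printed with the heptamer in capitals, and whether they bear on the levels of these transcripts was not tested.
Tmem72, miR-34: cactctgtgctCACTGCCaggaaagctga
Aqp1, miR-9: ctgacaagctgACCAAAGtcactccccaa
Slc13a4, miR-9: ggcctgattccACCAAAGgaaagagatgg
A match is a description of the sequence and not a site in use, and the other genes were without these letters in the UTRs searched.

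Promoter sequences, from 250 bases before to 50 bases after the annotated start on GRCm38.p6, were found in the RefSeq table for 7 of the 10 genes, with 2 starts for Kcne2. They were searched on both strands for TAATCC, a homeodomain site of the OTX type, TGTTTAC of forkhead factors, GTTGCC of RFX factors, the TATA box TATAAA and the E-box CACGTG. Each of the promoters printed holds 1 match, so no matches overlap. The motifs were in 7.06%, 3.65%, 12.5%, 13.6% and 7.15% of all 32851 promoters of the table, in that order. GTTGCC was found for Aqp1 and Kcne2, and TATAAA for Kcnj13 and Slc4a5. The other 3 motifs were in 0 of the 8 promoters. Only the 4 promoters with a match are printed, with the match in capitals, on the strand of the gene.
Kcnj13, chr1:87394680-87394979, minus strand, TATAAA beginning at base -29 from the start: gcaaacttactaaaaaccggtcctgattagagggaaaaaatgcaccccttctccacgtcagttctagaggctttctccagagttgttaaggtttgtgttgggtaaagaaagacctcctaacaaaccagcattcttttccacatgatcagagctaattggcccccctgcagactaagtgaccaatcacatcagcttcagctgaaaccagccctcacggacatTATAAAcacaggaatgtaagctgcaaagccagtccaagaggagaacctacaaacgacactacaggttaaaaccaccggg
Slc4a5, chr6:83237125-83237424, plus strand, the reverse complement TTTATA beginning at base -127 from the start: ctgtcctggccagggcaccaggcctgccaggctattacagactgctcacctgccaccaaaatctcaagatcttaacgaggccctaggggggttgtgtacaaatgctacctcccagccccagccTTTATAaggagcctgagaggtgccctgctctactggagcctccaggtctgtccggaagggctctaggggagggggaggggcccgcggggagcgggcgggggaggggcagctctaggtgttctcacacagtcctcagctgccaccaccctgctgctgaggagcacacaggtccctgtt
Aqp1, chr6:55336049-55336348, plus strand, GTTGCC beginning at base -111 from the start: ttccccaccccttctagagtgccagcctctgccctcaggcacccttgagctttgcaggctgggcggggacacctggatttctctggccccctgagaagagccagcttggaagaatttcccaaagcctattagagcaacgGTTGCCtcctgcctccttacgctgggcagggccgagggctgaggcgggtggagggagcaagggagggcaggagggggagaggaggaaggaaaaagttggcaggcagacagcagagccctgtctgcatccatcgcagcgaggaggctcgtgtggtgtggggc
Kcne2, chr16:92292139-92292438, plus strand, the reverse complement GGCAAC beginning at base -109 from the start: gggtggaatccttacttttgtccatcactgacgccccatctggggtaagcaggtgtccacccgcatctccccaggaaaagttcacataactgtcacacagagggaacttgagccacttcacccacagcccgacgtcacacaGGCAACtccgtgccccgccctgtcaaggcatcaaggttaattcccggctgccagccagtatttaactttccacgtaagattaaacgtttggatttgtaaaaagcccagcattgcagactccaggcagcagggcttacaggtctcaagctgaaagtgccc
No motif was found in more than 2 of the 7 genes, and a match says nothing of whether a factor binds.

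Per length, as RPKM (RPM divided by the entry length in kilobases), the order of the median levels over the 12 mice was Slc13a4 (5.89), Kcnj13 (2.17), Clic6 (1.79), Kcne2 (0.730), Slc16a8 (0.473), Aqp1 (0.395), Slc4a5 (0.307), Tmem72 (0.260) and Wdr72 (0.0514). Some neighbours in this order did not differ beyond their spread. Kcnj13 was above Clic6 in 6 of 12 mice and Slc16a8 above Aqp1 in 5 of 12. Slc13a4 was above Kcnj13 in 11 of 12, Clic6 above Kcne2 in 11 of 12, Kcne2 above Slc16a8 in 10 of 12 and Slc4a5 above Tmem72 in 9 of 12. Aqp1 was above Slc4a5, and Tmem72 above Wdr72, in 12 of 12 mice. The share of a gene in the summed level per length changed between mice. That of Slc13a4 was lowest, at 13.7%, in GFP Ctrl mouse 4 of the miR-34 experiment and highest, at 73.0%, in GFP-miR-9sp mouse 9, whereas that of Kcnj13 stayed between 8.19% and 23.1%.

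Aqp1 encodes the water channel of the apical membrane, through which much of the water of cerebrospinal fluid passes. In the miR-34 experiment its level was 3.22, 10.2 and 10.2 RPM in GFP Ctrl mice 10, 4 and 8, and 0.709, 0.429 and 0.675 in GFP-miR-34sp mice 13, 18 and 3. The groups did not overlap, and mouse 10 was the lowest of its group. In the miR-9 experiment the level was 1.47, 3.78 and 0.684 in GFP Ctrl mice 16, 2 and 8, and 5.82, 0.289 and 0.574 in GFP-miR-9sp mice 17, 23 and 9. Here the groups overlapped completely, with sponge mice at both ends of the range. The lowest value, in mouse 23, rested on 5 reads (95% interval 0.0940 to 0.675 RPM), so that the range of 35.2-fold over the 12 mice is known only roughly.

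Kcnj13 encodes Kir7.1, an inwardly rectifying potassium channel of the apical membrane, and Kcne2 encodes a small subunit that joins voltage-gated potassium channels there. Kcnj13 was at 4.32, 14.4 and 14.9 RPM in GFP Ctrl mice 10, 4 and 8 of the miR-34 experiment, and at 1.59, 0.944 and 1.57 in GFP-miR-34sp mice 13, 18 and 3. Among the miR-9 mice it was at 3.52, 6.25 and 1.00 in GFP Ctrl mice 16, 2 and 8, and at 9.49, 1.39 and 2.35 in GFP-miR-9sp mice 17, 23 and 9. The miR-34 groups were apart and the miR-9 groups overlapped, as for Aqp1. Kcne2 was at 3.59, 13.5 and 18.3 RPM in GFP Ctrl mice 10, 4 and 8, and at 1.122, 0.429 and 0.675 in GFP-miR-34sp mice 13, 18 and 3. With miR-9sp and its controls Kcne2 was at 1.35, 4.43 and 0.842 in GFP Ctrl mice 16, 2 and 8, and at 5.41, 0.521 and 0.469 in GFP-miR-9sp mice 17, 23 and 9. Mouse 17 again held the highest value of its experiment, and the other sponge mice held the lowest 2.

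Clic6 belongs to the family of chloride intracellular channels, and Slc4a5 encodes a sodium bicarbonate cotransporter of the apical membrane. Clic6 had 9.59, 40.9 and 40.7 RPM in GFP Ctrl mice 10, 4 and 8, against 4.55, 3.00 and 5.40 in GFP-miR-34sp mice 13, 18 and 3. In the miR-9 experiment it had 7.98, 18.6 and 3.74 in GFP Ctrl mice 16, 2 and 8, and 21.8, 2.03 and 0.991 in GFP-miR-9sp mice 17, 23 and 9. The order of the 6 mice of the miR-9 experiment was that of Kcne2. Slc4a5 had 1.90, 15.2 and 15.1 RPM in GFP Ctrl mice 10, 4 and 8, against 1.30, 0.429 and 0.675 in GFP-miR-34sp mice 13, 18 and 3. GFP Ctrl mouse 10 was thus close to GFP-miR-34sp mouse 13, with 95% intervals of 1.24 to 2.79 and 0.814 to 1.97 RPM that overlap. Among the miR-9 mice Slc4a5 had 1.84, 5.55 and 0.842 in GFP Ctrl mice 16, 2 and 8, and 8.17, 0.289 and 0.365 in GFP-miR-9sp mice 17, 23 and 9.

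Slc16a8 encodes MCT3, a proton-coupled carrier of lactate. It was at 2.05, 2.72 and 2.21 RPM in GFP Ctrl mice 10, 4 and 8, and at 0.472, 0.515 and 0.675 in GFP-miR-34sp mice 13, 18 and 3. Unlike the channels above, it had about the same level in the 3 GFP Ctrl mice of that experiment, and its fitted difference had the smallest standard error of the 8 genes. With miR-9sp and its controls it was at 0.696, 1.63 and 1.00 in GFP Ctrl mice 16, 2 and 8, and at 2.04, 0.405 and 0.156 in GFP-miR-9sp mice 17, 23 and 9. The value of mouse 9 was 3 reads, at the floor.

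Tmem72 encodes a transmembrane protein, and Wdr72 a WD repeat protein known for its part in enamel formation. Tmem72 was at 2.86, 8.61 and 7.47 RPM in GFP Ctrl mice 10, 4 and 8, and at 0.591, 0.257 and 0.375 in GFP-miR-34sp mice 13, 18 and 3. In the miR-9 experiment it was at 0.942, 2.19 and 0.789 in GFP Ctrl mice 16, 2 and 8, and at 4.44, 0.0579 and 0.261 in GFP-miR-9sp mice 17, 23 and 9, where mouse 23 had 1 read. Tmem72 was the 1 gene with a miR-34 heptamer in the UTR searched, and whether this match bears on its level was not tested. Wdr72 was read 7, 18 and 10 times in GFP Ctrl mice 10, 4 and 8, and 0, 0 and 1 times in GFP-miR-34sp mice 13, 18 and 3. Among the miR-9 mice it was read 8, 14 and 3 times in GFP Ctrl mice 16, 2 and 8, and 19, 1 and 4 times in GFP-miR-9sp mice 17, 23 and 9. At these counts Wdr72 stayed under the limit on low values in both experiments and was not tested, and no fold change is given. Folr1 encodes folate receptor alpha, which brings folate into the cerebrospinal fluid, and has no value beyond the listed 0.

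Slc13a4 encodes a sodium-coupled sulfate transporter. It was at 13.5, 22.1 and 40.6 RPM in GFP Ctrl mice 10, 4 and 8 of the miR-34 experiment, and at 11.04, 10.99 and 12.7 in GFP-miR-34sp mice 13, 18 and 3. With miR-9sp and its controls it was at 21.2, 21.8 and 19.1 in GFP Ctrl mice 16, 2 and 8, and at 27.4, 10.2 and 25.6 in GFP-miR-9sp mice 17, 23 and 9. Its range over the 12 mice was 3.96-fold, against 15.7-fold for Kcnj13 and 52.6-fold for Slc4a5. The lowest Slc4a5 value, in GFP-miR-9sp mouse 23, rested on 5 reads (95% interval 0.0940 to 0.675 RPM), so the range of Slc4a5 is known only roughly. GFP-miR-9sp mouse 9, which was low in most of the other genes, was high in Slc13a4. Slc13a4 also differed most from the mean profile of the 9 genes, with a root mean square difference of 0.80 on the log2 scale, where the other 8 lay between 0.25 and 0.52.

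**Figure D1:**
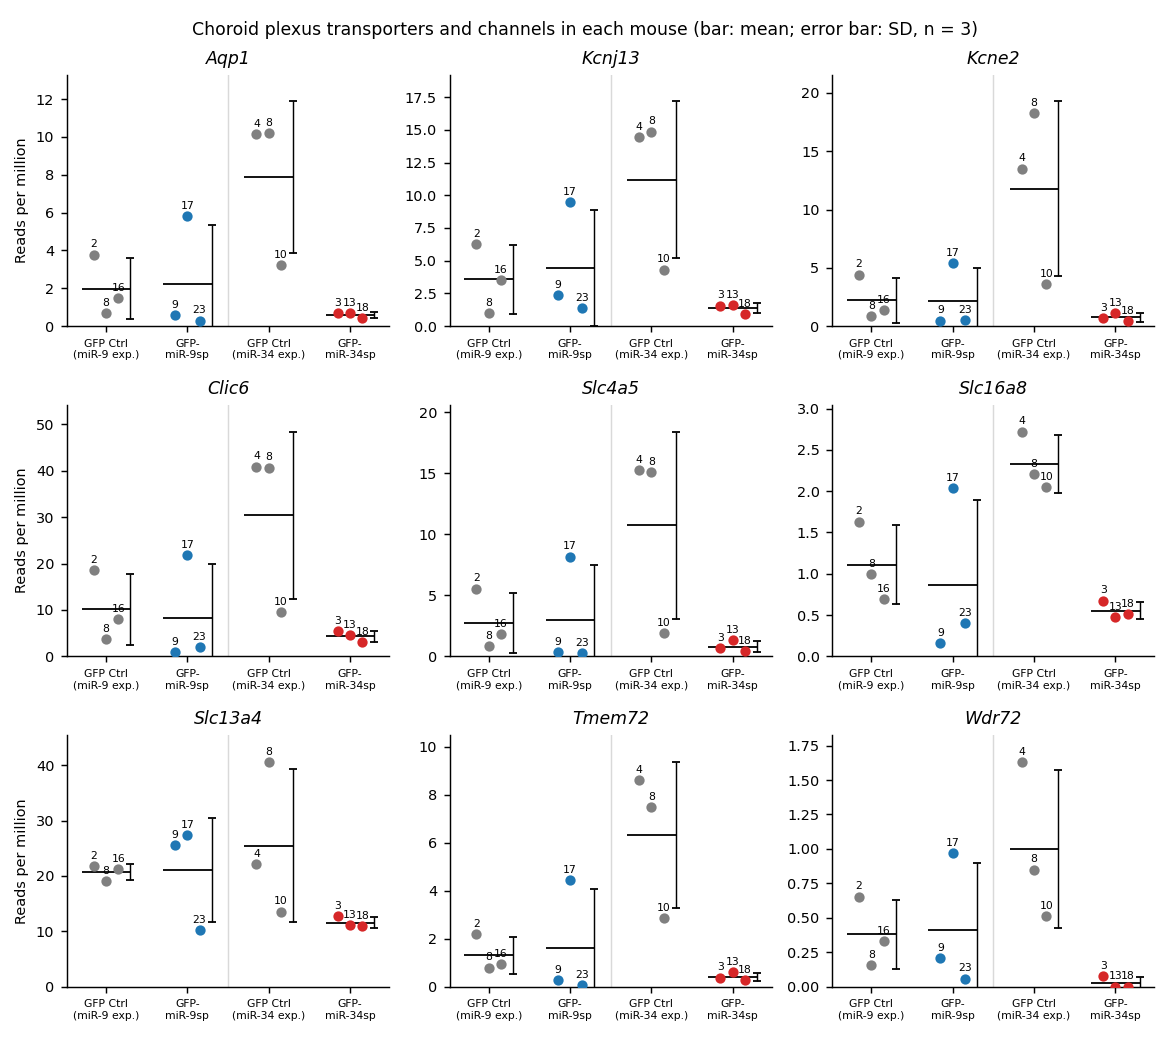
Levels in RPM (vertical axes, linear from 0) of the 9 genes with reads in each of the 12 mice, 1 point per mouse with its number, in the 4 groups. Horizontal lines are group means and error bars SD (n = 3), cut at 0 where they would pass it. GFP-miR-9sp mouse 17 held the highest value of its experiment for 9 of 9 genes, and the GFP-miR-34sp mice lay below their GFP Ctrl mice.

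The mice of the miR-9 experiment are ordered here as a description, since earlier results of these mice were known when the genes were listed. GFP-miR-9sp mouse 17 was the highest of the 6 for 9 of the 9 genes with reads, and GFP Ctrl mouse 2 was the next for 8 of 9, the exception being Slc13a4. The same 2 mice were the highest for Ttr, at 763 and 650 RPM. In the miR-34 experiment GFP Ctrl mice 4 and 8 held the highest 2 values of all 9 genes. Within these 3 groups, mice given the same vector thus differed in the same direction across most of the genes. The GFP-miR-34sp mice differed less, with mouse 18 the lowest of them in Ttr and in the sum below. Without Slc13a4, the genes summed to 58.1, 5.03 and 5.37 RPM in GFP-miR-9sp mice 17, 23 and 9, and to 18.1, 43.1 and 9.05 in GFP Ctrl mice 16, 2 and 8. In the miR-34 experiment the sums were 28.05, 107 and 110 in GFP Ctrl mice 10, 4 and 8, and 10.3, 6.01 and 10.1 in GFP-miR-34sp mice 13, 18 and 3.

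Ttr was at 576, 1802 and 2175 RPM in GFP Ctrl mice 10, 4 and 8 of the miR-34 experiment, and at 102, 27.6 and 91.3 in GFP-miR-34sp mice 13, 18 and 3. In GFP Ctrl mice 16, 2 and 8 of the miR-9 experiment it was at 236, 650 and 81.4, and in GFP-miR-9sp mice 17, 23 and 9 at 763, 21.1 and 16.01. Its range over the 12 mice was 136-fold. Aqp1 changed less steeply, with 4.68 to 8.40 reads per 1000 Ttr reads in the 9 mice with the most Ttr, and 13.7, 15.5 and 35.8 in the other 3 (mice 23 and 9 with GFP-miR-9sp and mouse 18 with GFP-miR-34sp). Kcne2 had 5.72 to 10.95 in those 9 mice, and Clic6 16.7 to 59.1. In mice 23, 18 and 9, Kcne2 had 24.7, 15.5 and 29.3, and Clic6 95.9, 108.7 and 61.9. The ratios of these 3 mice rest on few reads, with 5, 5 and 11 of Aqp1 and 9, 5 and 9 of Kcne2. Kcnj13 ranged from 6.83 to 146.6 reads per 1000 Ttr reads over the 12 mice, and Slc13a4 from 12.3 to 1599. The level that remained where Ttr was lowest was thus largest, relative to Ttr, for Slc13a4. Otx2, a transcription factor of the choroid plexus, had at most 3 reads in a mouse. Kl, which encodes Klotho and is also expressed in hippocampal neurons, ranged from 33.3 to 112.8 RPM, or 3.38-fold.

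**Figure D2:**
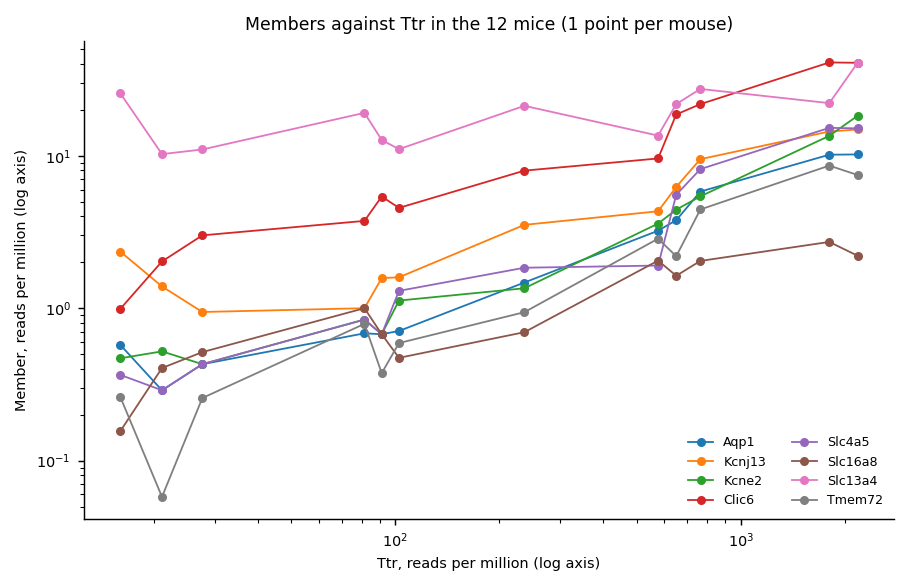
Level of 8 genes (vertical axis) against that of Ttr (horizontal axis), both in RPM on log axes, with 1 point per mouse for the 12 mice and lines joining the mice in order of Ttr. Most genes are higher where Ttr is higher, while Slc13a4 stays between 10.2 and 40.6 RPM.

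In the miR-9 experiment, the question was whether neuronal sequestration of miR-9 changed these genes. In edgeR's quasi-likelihood fit, 0 of the 8 genes tested had a Benjamini-Hochberg adjusted p under 0.05, as had 0 of all 13045 genes (0.0%), where 617 genes had an unadjusted p under 0.05 and DESeq2 called 2. Nor did any of the 8 genes have its 3 sponge mice below its 3 GFP Ctrl mice, a pattern seen in 7.86% of the genes tested. The log2 fold changes of GFP-miR-9sp against GFP Ctrl lay on both sides of 0. They were 0.33 (SE 0.90) for Tmem72, 0.31 (SE 0.66) for Kcnj13, 0.21 (SE 0.84) for Aqp1, 0.14 (SE 0.94) for Slc4a5 and 0.05 (SE 0.26) for Slc13a4. Kcne2 was at -0.01 (SE 0.82), Clic6 at -0.26 (SE 0.83) and Slc16a8 at -0.29 (SE 0.65). The edgeR adjusted p-values of the 8 genes ran from 0.978 for Kcnj13 to 0.999 for Kcne2. Beside Slc13a4, the standard errors were 0.65 or more on the log2 scale, so even large differences in either direction could go uncalled. The count of 0 called thus does not show that these genes were unchanged.

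Single mice set the direction of several of these values. Without GFP-miR-9sp mouse 17 the log2 fold change was -3.01 for Slc4a5, -2.92 for Tmem72, -2.74 for Clic6, -2.14 for Aqp1, -2.12 for Kcne2, -1.94 for Slc16a8, -0.91 for Kcnj13 and -0.17 for Slc13a4, and 0 of the 8 had an adjusted p under 0.05 in edgeR. Without GFP Ctrl mouse 2, in contrast, it was 1.13 for Slc4a5, 1.04 for Aqp1, 0.97 for Kcne2, 0.94 for Kcnj13, 0.91 for Tmem72, 0.50 for Clic6, 0.09 for Slc13a4 and 0.11 for Slc16a8, again with 0 of 8 called.

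The spread between mice of the same group was, for most of these genes, among the largest of all genes in the miR-9 experiment. It is given as the biological coefficient of variation, the relative spread between replicate mice that remains after counting noise. Over the 13045 genes of the miR-9 experiment its median was 0.0603, and Ttr had the highest value, 0.934. Slc4a5 (0.841), Tmem72 (0.818), Clic6 (0.743), Aqp1 (0.733) and Kcne2 (0.694) were among the 10 genes with the largest values, and Kcnj13 (0.566) and Slc16a8 (0.527) among the first 20. Slc13a4, at 0.226, ranked 159. In the miR-34 experiment the coefficients ran from 0.0901 for Slc16a8 to 0.472 for Slc4a5, with a median over all genes of 0.0593.

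**Figure D3:**
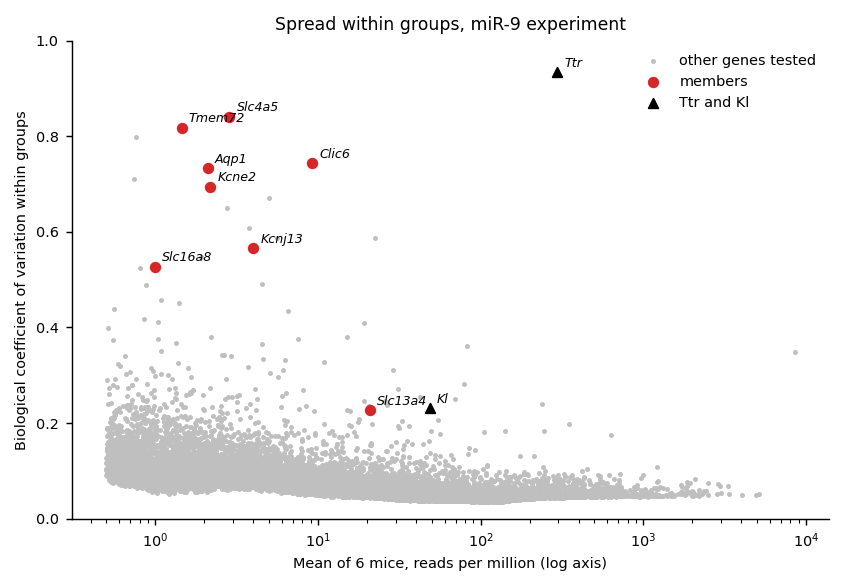
Biological coefficient of variation within groups (vertical axis) against the mean of the 6 mice of the miR-9 experiment in RPM (horizontal log axis), for each of the 13045 genes tested. The 8 genes (circles) and Ttr and Kl (triangles) are named. All of them lie above the median of 0.0603, and 5 of the 8 are among the 10 highest.

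In the miR-34 experiment, whose values chose the genes, the means ± SD were 7.86 ± 4.01 RPM in GFP Ctrl and 0.604 ± 0.153 in GFP-miR-34sp for Aqp1 (n = 3 each). Those of Kcnj13 were 11.2 ± 5.96 and 1.37 ± 0.370, those of Kcne2 11.8 ± 7.49 and 0.742 ± 0.351, and those of Clic6 30.4 ± 18.0 and 4.32 ± 1.21. Slc4a5 had 10.8 ± 7.66 and 0.801 ± 0.449, Slc16a8 2.33 ± 0.350 and 0.554 ± 0.107, Tmem72 6.31 ± 3.05 and 0.408 ± 0.169, and Slc13a4 25.4 ± 13.8 and 11.6 ± 0.958 (n = 3 each). The SD was larger in GFP Ctrl than in GFP-miR-34sp for each of these genes, as was the mean, and relative spread was not compared. The fitted log2 fold changes were -3.88 (SE 0.59) for Kcne2, -3.83 (SE 0.48) for Tmem72, -3.63 (SE 0.48) for Aqp1, -3.62 (SE 0.70) for Slc4a5, -2.97 (SE 0.45) for Kcnj13, -2.78 (SE 0.47) for Clic6, -2.06 (SE 0.28) for Slc16a8 and -1.13 (SE 0.30) for Slc13a4. Their median was -3.29, against -0.00067 over all genes tested.

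Over the whole table, edgeR's fit called 8 of 12492 genes (0.064%), all of them lower after miR-34sp. Aqp1, Kcnj13, Slc16a8 and Tmem72 were among the 8, which is no test of them, since these same values chose them. Every GFP-miR-34sp mouse was under every GFP Ctrl mouse in 8 of the 8 genes described here, beside 5.43% of the genes tested, and nothing is read from this count for the same reason. The criterion of the study's methods, an unadjusted p under 0.05 of an unpaired test with a ratio beyond 1.2-fold either way, was passed by 2.01% of all genes in the miR-34 experiment. Among the miR-9 mice it was passed by 0 of the 8 and by 1.42% of all genes. The count over the whole table depended on single mice. Without GFP Ctrl mouse 10, edgeR called 57 genes, without GFP Ctrl mouse 8 it called 1, and without GFP Ctrl mouse 4 or any single GFP-miR-34sp mouse it called 0.

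**Figure D4:**
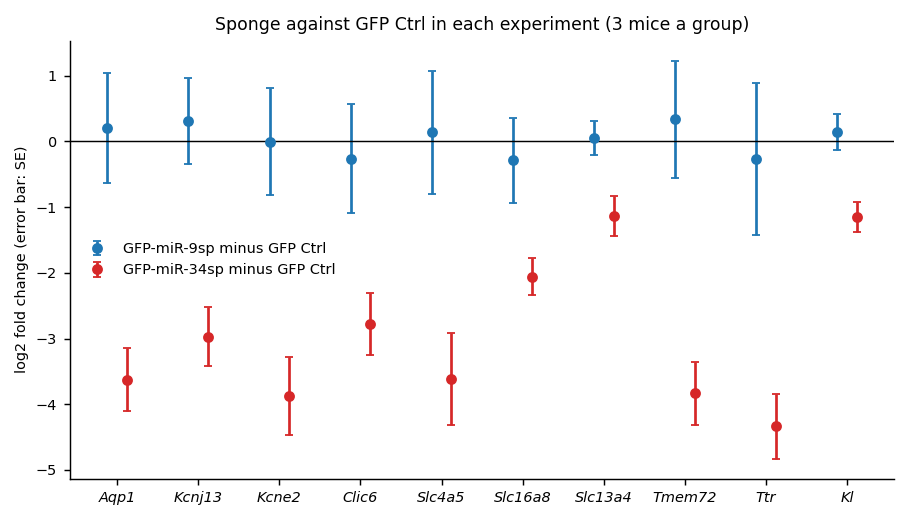
log2 fold change of sponge against GFP Ctrl (vertical axis, error bars SE) for 8 genes, Ttr and Kl, in the miR-9 experiment and in the miR-34 experiment, with 3 mice a group. The miR-9 values lie between -0.29 and 0.33, and the miR-34 values, which chose the 8 genes, lie between -1.13 and -4.34.

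The GFP Ctrl mice of the experiments carried the same vector but were not alike in these genes. Their libraries differed as well. The largest entry without a symbol took 0.474% to 1.46% of reads in GFP Ctrl of the miR-9 experiment. In GFP Ctrl of the miR-34 experiment it took 0.1375% to 0.149%, so differences of mice and of libraries cannot be told apart here. The mean of Aqp1 was 1.98 ± 1.61 RPM in GFP Ctrl of the miR-9 experiment and 7.86 ± 4.01 in that of the miR-34 experiment (SD, n = 3 each). For Kcne2 the means were 2.21 ± 1.94 and 11.8 ± 7.49, and for Clic6 10.1 ± 7.68 and 30.4 ± 18.0. For Slc13a4 they were 20.7 ± 1.43 and 25.4 ± 13.8. The GFP Ctrl mice of the miR-34 experiment are those that chose the genes, so no test is given. GFP-miR-9sp mice 23 and 9 had Aqp1, Kcne2, Slc4a5 and Tmem72 at levels as low as those of the GFP-miR-34sp mice.

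Lists of other genes were described by their counts and medians. Of 24 other genes of ion, acid-base and water transport in the choroid plexus, 20 passed the limit on low values, and 0 were called by edgeR in either experiment. With an unadjusted p under 0.05, 5 of the 20 were lower and 0 higher after miR-34sp, and 1 lower and 0 higher after miR-9sp. Of all genes tested, 3.72% were lower and 2.71% higher at this limit after miR-34sp, and 2.26% lower and 2.47% higher after miR-9sp. Their median log2 fold change was -0.06 after miR-34sp and -0.02 after miR-9sp, beside -0.00067 and -0.00062 over all genes. Most of them, such as the sodium pump, are expressed in many brain cells, and their summed level of 6414 to 7026 RPM hardly varied. The lowest was Trpv4, an osmotically sensitive cation channel, at 6.84 ± 3.54 RPM in GFP Ctrl and 2.05 ± 0.470 after miR-34sp (log2 fold change -1.70, SE 0.38, edgeR adjusted p = 0.278). The highest was Slc4a7, a sodium bicarbonate cotransporter (log2 fold change 0.08, SE 0.06, edgeR adjusted p = 0.902). After miR-9sp and in its GFP Ctrl mice, Trpv4 was at 2.87 ± 1.94 and 2.95 ± 1.29 RPM (SD, n = 3 each). Of 21 solute carriers and efflux pumps, 14 passed and 0 were called, with medians of -0.08 after miR-34sp and -0.001 after miR-9sp. With an unadjusted p under 0.05, 4 of the 14 were lower and 1 higher after miR-34sp, and 0 either way after miR-9sp. Among them Abca4, a retinoid transporter, had a log2 fold change of -1.94 after miR-34sp (SE 0.40, edgeR adjusted p = 0.197) and Slc26a11, an anion transporter, one of 0.31 (SE 0.13, edgeR adjusted p = 0.724). After miR-9sp and in its GFP Ctrl mice, Abca4 was at 4.68 ± 3.15 and 4.52 ± 1.65 RPM and Slc26a11 at 6.68 ± 0.475 and 7.44 ± 0.546 (SD, n = 3 each).

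Of 30 other marker genes of choroid plexus epithelium, which like the 10 genes were listed with results of these mice known, 22 passed. After miR-34sp 4 were called lower by edgeR, with a median of -1.63 and 22 of 22 below 0, and after miR-9sp 0 were called, with a median of -0.05 and 14 of 22 below 0. With an unadjusted p under 0.05, 21 of the 22 were lower and 0 higher after miR-34sp, and 0 either way after miR-9sp. The 4 called were Ttr (log2 fold change -4.34, SE 0.49, adjusted p = 0.0278), Cldn2, a claudin of the epithelial tight junctions (-3.003, SE 0.45, adjusted p = 0.0499), Ecrg4, which encodes a secreted peptide precursor (-2.78, SE 0.41, adjusted p = 0.0499), and Rdh5, a retinol dehydrogenase (-1.49, SE 0.22, adjusted p = 0.0499). The number of these markers called changed in each of the 8 other settings and in each of the 6 fits with a mouse left out. Since results were known when the markers were listed, their calls are a description. Cab39l changed least (log2 fold change -0.45, SE 0.11, edgeR adjusted p = 0.401). Among the 4, Cldn2 was at 2.59 ± 3.50 RPM after miR-9sp and 2.90 ± 1.73 in its GFP Ctrl mice (SD, n = 3 each), overlapping as the channels did. Ttr and Kl were at -0.27 (SE 1.16) and 0.15 (SE 0.27) after miR-9sp, with edgeR adjusted p-values of 0.991 and 0.978. Kl was at -1.15 (SE 0.23) after miR-34sp, with an adjusted p of 0.181.

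The genes whose profile over the 12 mice lay nearest to the mean profile of the 9 genes were sought among 12827 others, by the root mean square difference of centred log2 RPM, with a pseudocount of 0.5. These were Steap1 (0.20), Cldn2 (0.21), Ecrg4 (0.23), Prlr (0.28), Wfdc2 (0.33), F5 (0.39), Prr32 (0.40), Abca4 (0.41), Sostdc1 (0.42) and Trpv4 (0.43), where the median over genes was 1.11. Of the 9 genes themselves, Aqp1 lay nearest at 0.25, followed by Tmem72 and Kcnj13 at 0.30. Prlr, the prolactin receptor, ranged from 7.21 to 45.5 RPM, and Cldn2 from 0.521 to 12.2. With pseudocounts of 0.1 and 2 RPM, 7 and 6 of these 10 genes were named again.

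Markers of neighbouring cells were read in the same mice. For meningeal fibroblasts and stroma, 14 of 14 markers passed and 0 were at 0 in all mice. Their summed level was 753 to 843 RPM in GFP Ctrl and 499 to 975.0 in GFP-miR-9sp of the miR-9 experiment, and 544 to 1301.5 in GFP Ctrl and 526 to 592 in GFP-miR-34sp of the miR-34 experiment. The 3 mice with the highest Slc13a4 were the 3 highest in this sum, while GFP Ctrl mouse 4 of the miR-34 experiment, with Slc13a4 at 22.1, had 547. GFP Ctrl mouse 8 of the miR-34 experiment had 1301.5 RPM of meningeal markers, and GFP-miR-9sp mice 17 and 9 had 965 and 975.0, against 499 in mouse 23. Mouse 9 thus had high meningeal markers and high Slc13a4 beside low Ttr, and the part of meningeal tissue in the level of Slc13a4 was not tested. After miR-34sp 13 of 14 meningeal markers were below 0, with a median of -0.54, 0 called and 6 lower and 0 higher at an unadjusted p under 0.05, and Igf2 was the lowest (log2 fold change -1.41, SE 0.29, edgeR adjusted p = 0.181).

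The 12 ependymal markers summed to 35.2 to 49.7 RPM in GFP Ctrl and 36.1 to 46.6 in GFP-miR-9sp, and to 58.6 to 61.1 in GFP Ctrl and 40.8 to 61.9 in GFP-miR-34sp. After miR-34sp 10 of the 11 that passed were below 0, with a median of -0.31, 0 called and 3 lower and 0 higher at an unadjusted p under 0.05. Mia was the lowest (log2 fold change -0.79, SE 0.25, edgeR adjusted p = 0.565). Striatal markers summed to 135 to 211 RPM in GFP Ctrl and 119 to 134 in GFP-miR-34sp, with a median of -0.37 over 9 genes, 0 called and 5 lower and 0 higher at an unadjusted p under 0.05. The medians of the endothelial, astrocyte, microglial, thalamic and hippocampal neuron markers lay between -0.12 and 0.04 in the miR-34 experiment, where at most 3 genes of a list had an unadjusted p under 0.05. The part of tissue taken with the hippocampus, or of the amount of choroid plexus, in the levels of the 10 genes was not tested.

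**Figure D5:**
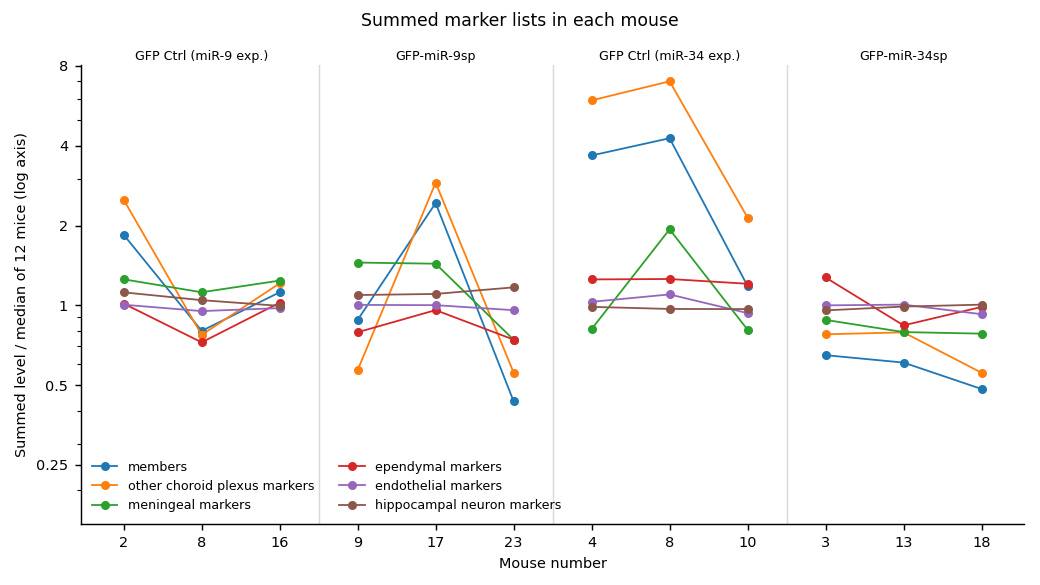
Summed level of 6 marker lists in each mouse, divided by the median of the 12 mice (vertical log axis), with mice by number along the horizontal axis and the 4 groups named above. The lists of choroid plexus genes vary most, and the hippocampal neuron and endothelial lists stay near 1.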

How the data were processed

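The deposited values are raw counts, made by the authors as whole reads for each of 32850 RefSeq transcript entries, from 50 base single end reads of libraries described as poly-A enriched. Beside them the authors deposited another value, the length of each entry. The methods name mm9, whereas the submitters' processing notes name STAR and mm10, without versions, and which build the counts rest on was not settled. The column headers differ between experiments, with totRNA written in those of miR-9 alone. The counting tool and its strand setting are not given in the sources used here. One set of GFP Ctrl mice is labelled for the miR-34 experiment, and the titles of the other name no experiment, so it was taken as that of the miR-9 experiment from the treatment labels and the methods.

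A symbol was found for 98.7% of entries, and reads were summed per symbol, while the other 428 entries stayed as rows of their own. Genes whose scaled reads averaged more than 10 across an experiment's 6 mice were fitted with edgeR 4.0.16 (R 4.3.3, quasi-likelihood test, TMM), sponge against GFP Ctrl of the same experiment, with Benjamini-Hochberg adjustment over all genes tested and a limit of 0.05. Levels are given as RPM, reads divided by the total count and multiplied by 1000000, and also per kilobase of the deposited length where genes are compared. Intervals are exact Poisson, at 95%. DESeq2 1.42.0, other scalings, other limits on low values, single entries, 1 model of 12 mice and leaving out each mouse were alternatives. Each group holds 3 mice, and an exact permutation test of 3 against 3 cannot give a two-sided p under 0.1, so none was used.

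The 10 genes and all gene lists were chosen with earlier results of these data known. Named besides the 10 are Ttr, Otx2 and Kl, the 10 nearest genes by profile, list genes with an adjusted p under 0.05, and the tested list genes with the largest and smallest log2 fold change after miR-34sp. The rule covered the markers of other cells too, and where no result turned on such a gene its list is given by counts and medians. A further experiment on miR-124 was not used here. Python 3.11.15, pandas 2.3.3, scipy 1.17.1 and matplotlib 3.10.9 were used.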

Additional observations from a re-analysis of the deposited data

How the results depend on the processing

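No paired analysis was possible because the sponge and GFP Ctrl mice of an experiment share no mouse number. In the miR-9 experiment 0 of the 8 genes, or of those left by a stricter limit, were called under each of the 14 alternatives. The count of all genes called there was 0, with 2 in DESeq2, 2 without a filter beyond 1 read, 185 by the unpaired criterion, and 0 to 1 with a mouse left out. In the miR-34 experiment the count of 8 genes became 4 with RLE size factors, with total counts alone and over single entries, 36 in DESeq2, 81 without a filter, 251 by the unpaired criterion, and 0 with a limit of 50 reads or in 1 model of 12 mice. The 8 genes described were chosen by this contrast, so their own calls there are no support and are given only to show how calls move. From 4 they became 7 in DESeq2, 9 without a filter (which admits Wdr72), and 0 with a limit of 50 reads or in the model of 12 mice. Leaving out 1 mouse gave 0 to 57 genes and 0 to 8 of the 8. The cause of these shifts was not tested. The miR-34 log2 fold changes of the 8 genes kept their sign throughout. Those of the miR-9 experiment kept theirs with all mice in the fit and turned with a mouse left out, from -2.14 to 1.04 for Aqp1, -1.94 to 0.22 for Slc16a8, -3.01 to 1.13 for Slc4a5, -0.91 to 0.94 for Kcnj13, -2.12 to 0.97 for Kcne2, -2.74 to 0.50 for Clic6, -0.17 to 0.36 for Slc13a4, -2.92 to 0.91 for Tmem72, -4.09 to 0.75 for Ttr and -0.25 to 0.43 for Kl. TMM scaling moved the group means in RPM by less than their SD. Use of the longest entry length could not move the means per length, since each of the 9 genes with reads has 1 entry. Depth limits Wdr72 and the lowest values of Tmem72 and Slc16a8, which rest on 1 and 3 reads.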
